A study of Sus scrofa with 23 samples.

Results

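Feed restriction within the high line was examined in 16 of the 23 pigs of the study, with 1 single-colour array per pig of the Longissimus, a back muscle, at 115 kg. Pigs with a high residual feed intake (RFI) eat more than their growth and upkeep predict. The 8 free-fed high-RFI pigs had feed ad libitum and the 8 restricted high-RFI pigs were given as much as the low-RFI line ate, so both groups share the line and the body weight and differ in feeding. The members were taken by their titles. The 7 free-fed low-RFI pigs entered the model for the spread, and also the filter on dim probes and the choice of each gene's brightest probe. Age, sex, litter and the time from the last meal to sampling are not given in the sources used here.

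Muscle adapts to a shortage of feed by burning more fatty acids and fewer carbohydrates, under the control of PPAR and FOXO transcription factors, and by slowing protein synthesis and raising protein breakdown through the ubiquitin-proteasome system and autophagy. Glucocorticoids support this switch, and genes such as PDK4, UCP3 and FBXO32 are well known to respond to fasting in muscle.

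Levels are log2 signals scaled to the 75th percentile of their array, and differences are restricted minus free-fed values on that scale with the standard error (SE) of the limma fit. Between 45.8% and 77.5% of the spots of the 16 arrays were well above background, with medians of 67.95% in free-fed and 67.25% in restricted pigs. The arrays lay on 6 slides read on 2 scan days, and every slide held both groups. Over all 23 arrays, slide accounted for 60.7% of the first principal component and 52.7% of the third. Over the 16 high-RFI arrays, feeding accounted for 1.9% of the first and 28.0% of the third. The number of arrays limits the precision. All 9 measured genes of the muscle fibre identity list, among them ACTA1, CKM and DES, were well above background on at least 8 of the 16 arrays, with a mean level between 8.76 and 9.27 over the 16 pigs. In whole muscle, fewer cells of a type and less RNA per cell cannot be told apart.

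A single probe of 27785 passed an adjusted p of 0.05 between the 2 feeding regimes, a background of 0.0036%. It belongs to PAN3, a subunit of the enzyme that begins to shorten poly(A) tails. At an unadjusted p under 0.05 there were 2713 probes (9.76%), 1376 with a positive difference (4.95%) and 1337 with a negative one (4.81%), while 53.1% of all probes were positive whatever their p. Of the probes at that level, 69.5% in place of 50.7% were positive when arrays were centred on their median. Of 4195 genes, each taken by its brightest probe, 249 had a positive (5.94%) and 199 a negative difference (4.74%) at that level, and 0 passed the adjusted threshold on that probe in limma. Of all genes 56.3% were positive. The median difference was 0.01 over probes and 0.02 over genes. With the probes in 5 equal classes by signal, the median went from -0.05 in the dimmest class (levels up to -3.02) to 0.07 in the brightest (levels from 2.08). Normexp background correction, another way to treat dim spots, gave smaller differences for many of the dim genes named below, and its values are given beside them. For 22 probes the 8 restricted and the 8 free-fed pigs did not overlap (0.0792%), 16 of them lower (0.0576%) and 6 higher (0.0216%) in restricted pigs. No probe was well above background in 6 or more pigs of one group and in none of the other.

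The PAN3 probe fell with restriction. Its level ran from -1.80 through a median of -1.43 to -1.12 in free-fed pigs and from -2.95 through -2.22 to -1.92 in restricted pigs, so the groups did not overlap. The difference of -0.81 had an SE of 0.13 and a 95% interval from -1.07 to -0.54, with an adjusted p of 0.0475 in limma. With normexp it was -0.39 (limma adjusted p 0.0394) and with quantile normalization alone -0.76 (limma adjusted p 0.0494). The call held in both, and the smaller size with normexp includes the shrinkage by the offset. The difference of the main fit was negative on 6 of 6 slides, at -1.10 on scan day 1 and -0.51 on scan day 2. The call was lost in 8 of 16 other settings. Among them were slide as a block (-0.75, limma adjusted p 0.102) and the 2 high-RFI groups without the low-RFI pigs (-0.81, limma adjusted p 0.191). It was also lost when any of 9 of the 16 pigs was omitted, with differences from -0.86 to -0.71 over the 16 omissions. The other 3 PAN3 probes stood at -0.19, -0.07 and -0.03, so most of the gene's probes did not share the change. Below, the called probe is set beside 2 of them, one on the same target sequence 1535 bases upstream and one on another PAN3 target, with adenines in capitals because base content is taken up next.
PAN3 at base 2405, difference -0.81: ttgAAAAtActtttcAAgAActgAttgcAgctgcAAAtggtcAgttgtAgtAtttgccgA
PAN3 at base 870, difference -0.19: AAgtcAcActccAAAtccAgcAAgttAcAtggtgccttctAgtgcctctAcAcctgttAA
PAN3 at base 1459 of the other target, difference -0.03: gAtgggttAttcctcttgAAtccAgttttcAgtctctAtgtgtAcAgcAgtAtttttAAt

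**Figure D1:**
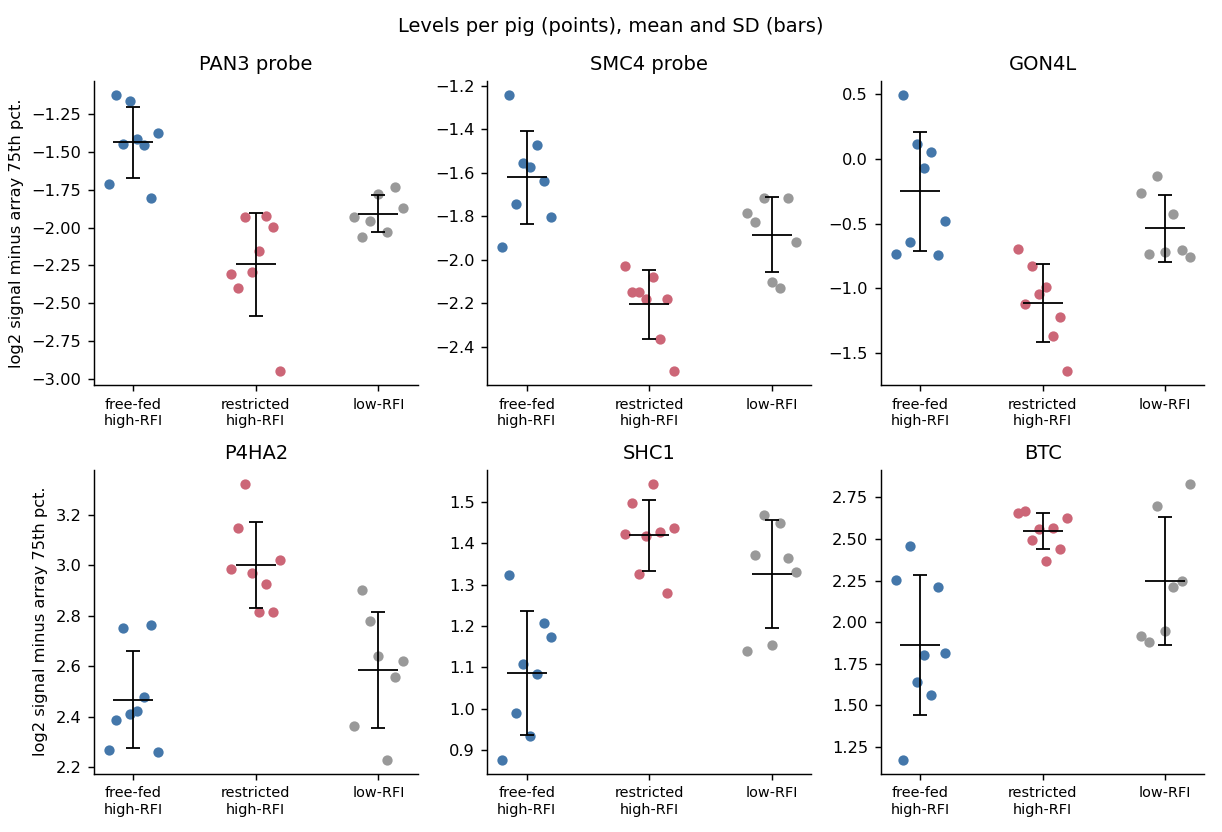
Levels of 6 probes (log2, scaled to the 75th percentile of each array) in each free-fed high-RFI, restricted high-RFI and low-RFI pig, with the mean and SD of the group. The PAN3 and SMC4 probes and P4HA2 did not overlap between the 2 high-RFI groups, and only the PAN3 probe passed the adjusted threshold.

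Disagreement between probes of 1 gene was common among the negative differences. Of 38 genes with several probes and at least 1 negative difference at an unadjusted p under 0.001, the remaining 115 probes had a median of -0.05, and 83 of them were negative. Of 18 genes with a positive difference at that level, the remaining 42 probes had a median of 0.26, and 38 were positive. The genes were chosen by one of their own probes, so these counts describe them only. SRSF11, a serine/arginine-rich splicing factor, shows the pattern best with 9 probes on 1 target. Its brightest probe, 1474 bases upstream of the 3′-most one, ran from 2.88 through 3.16 to 3.49 in free-fed pigs and from 2.25 through 2.75 to 2.97 in restricted pigs. They differ by -0.51 (SE 0.11, limma adjusted p 0.101), and 7 of 8 restricted pigs lay below every free-fed pig. The 3′-most probe ran from 1.98 through 2.23 to 2.45 and from 1.95 through 2.29 to 2.66, a difference of 0.04 with full overlap.

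SMC3, a subunit of cohesin, had 3 probes at least 2214 bases upstream with differences between -0.48 and -0.30. Its 3 probes from the 3′-most one to 288 bases upstream stood between 0.01 and 0.05. DNMT1, the maintenance DNA methyltransferase, stood at -0.95 (SE 0.19, limma adjusted p 0.0983) on a probe 4251 bases upstream and at -0.34 on one 4725 bases upstream, against -0.17 to -0.02 on the 4 nearer ones. SMC4, a subunit of condensin, stood at -0.58 (SE 0.10, limma adjusted p 0.0628) on 1 probe, with no overlap between the groups, and between -0.24 and -0.11 on the other 3, and its low probe stood at -0.26 with normexp. The sequences of contrasting probes are given because the low ones printed are also richer in adenine, shown in capitals. Some probes not printed went otherwise. The SMC3 probe at -0.30 had 25% adenine, as did its 3′-most one. The DNMT1 probe at -0.34 had 26.7%, against 30% in one at -0.12, and the 3′-most DNMT1 probe stood at -0.15 with 23.3%. An SMC4 probe with 41.7% stood at -0.13.
SRSF11 at base 1205, difference -0.51: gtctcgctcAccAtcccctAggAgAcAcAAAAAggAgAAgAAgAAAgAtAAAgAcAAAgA
SRSF11 at base 780, difference -0.50: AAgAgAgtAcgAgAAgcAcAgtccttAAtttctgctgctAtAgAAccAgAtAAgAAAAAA
SRSF11 at base 2001, difference -0.05: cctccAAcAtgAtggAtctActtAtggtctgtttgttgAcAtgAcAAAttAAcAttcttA
SRSF11 at base 2679, difference 0.04: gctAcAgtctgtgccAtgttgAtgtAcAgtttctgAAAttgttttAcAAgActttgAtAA
SMC3 at base 1258, difference -0.48: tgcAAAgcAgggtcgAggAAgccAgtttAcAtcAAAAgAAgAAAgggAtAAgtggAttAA
SMC3 at base 3959, difference 0.02: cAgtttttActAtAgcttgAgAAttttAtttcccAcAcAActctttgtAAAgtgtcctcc
DNMT1 at base 783, difference -0.95: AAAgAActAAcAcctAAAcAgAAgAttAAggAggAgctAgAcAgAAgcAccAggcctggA
DNMT1 at base 4466, difference -0.02: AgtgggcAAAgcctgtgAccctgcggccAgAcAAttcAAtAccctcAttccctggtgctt
SMC4 at base 2779, difference -0.58: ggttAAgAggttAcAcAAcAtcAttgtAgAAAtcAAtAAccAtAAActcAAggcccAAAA
SMC4 at base 3781, difference -0.11: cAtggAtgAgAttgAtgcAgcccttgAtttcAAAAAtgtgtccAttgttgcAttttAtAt

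**Figure D2:**
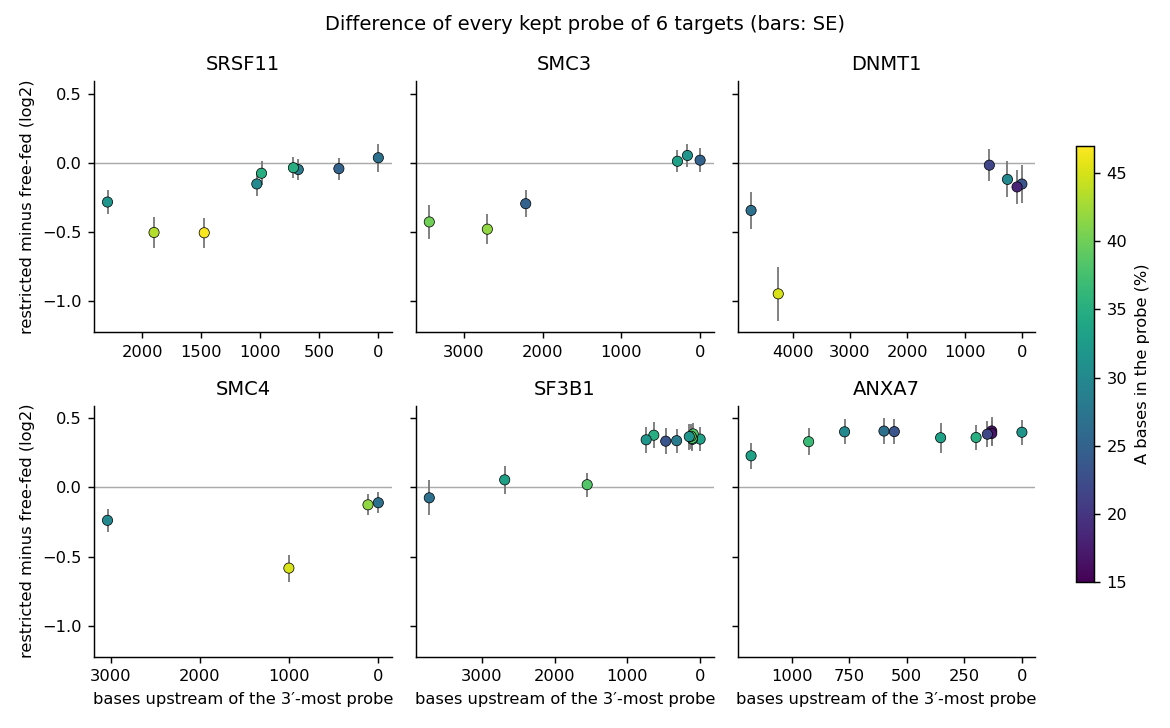
Difference (restricted minus free-fed, log2, with SE) of every kept probe of 6 target sequences against its distance upstream of the 3′-most probe, which lies at the right of each panel. Colour gives the share of adenine in the probe. SRSF11, SMC3, DNMT1 and SMC4 have low values far upstream, SF3B1 has positive values up to 742 bases upstream and values near 0 beyond, and all 11 ANXA7 probes are positive.

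Distance from the 3′-most probe of the same target went with the differences across the array. RNA was labelled by linear amplification with T7 RNA polymerase, per the labels' protocols. For 2432 target sequences with more than 1 kept probe, the 3′-most probes had a negative difference at an unadjusted p under 0.05 in 3.12% of cases and a positive one in 8.18%. The share of negative differences was 2.68% among 2837 probes up to 500 bases upstream and 6.91% among 1230 probes from there to 1000 bases. Of 560 probes from 1000 to 1500 bases, 60 were negative and 1.79% positive. The negative share was 17.2% among 489 probes between 1500 and 3000 bases upstream and 21.1% among 175 probes farther away, and positive differences made up 2.45% and 0% of these last groups. The median difference went from 0.04 at the 3′-most probes to -0.11 beyond 3000 bases. Negative differences were more frequent and positive ones rarer beyond 1000 bases than near the 3′-most probe, though not at every step. Adenine content went the same way, with negative differences in 1.57% of 2492 probes under 20% adenine and 11.8% of 1784 probes between 40% and 45%. Both held together, since among probes over 500 bases upstream the share went from 2.39% under 25% adenine to 20.1% at 35% or more, while among the 3′-most probes it went from 1.55% to 6.06%. Probes on one transcript are not independent, so these shares are descriptions.

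A value per pig was then formed after this pattern had been seen, the median level of 2454 probes over 500 bases upstream minus that of the 3′-most probe of the same target. It ran from -1.78 through a median of -1.73 to -1.68 in free-fed pigs and from -1.91 through -1.83 to -1.67 in restricted pigs, and from -1.83 to -1.71 in low-RFI pigs. The groups overlapped, with most restricted pigs at the low end. The difference was -0.07, negative on 5 of 6 slides, at -0.09 on scan day 1, -0.05 on scan day 2 and -0.06 without the arrays of slide 3. The value was built from the pattern seen in these same arrays, so it is a description with no test. The part of this value in the differences of single genes was not tested. The covariate fit given next uses a value built from the same levels, so it cannot test that part.

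**Figure D3:**
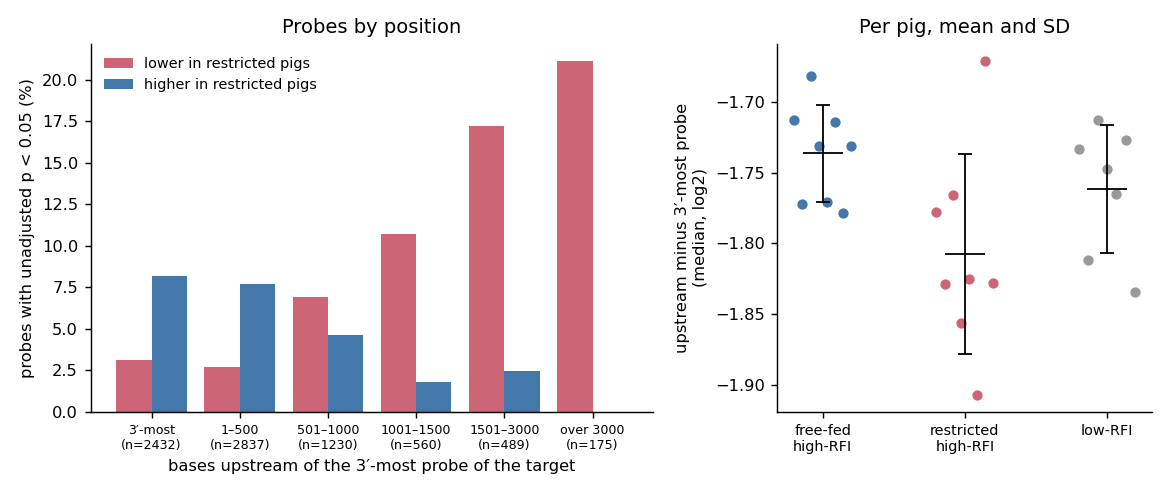
Left, percentage of probes with an unadjusted p under 0.05 by distance upstream of the 3′-most probe of the target, lower (red) and higher (blue) in restricted pigs. Right, median log2 level of upstream minus 3′-most probes in each pig with the group mean and SD, lower on average in restricted (-1.81) than in free-fed (-1.74) pigs.

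With this value as a covariate in the model, an alternative added after the data were seen, 0 probes passed the adjusted threshold and 2988 had an unadjusted p under 0.05, of which 59.9% were positive. PAN3 stood at -0.76 (limma adjusted p 0.248), SMC4 at -0.56 (0.307) and SRSF11 at -0.44 (0.349).

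Other genes had positive differences on all or most of their probes, and none passed the adjusted threshold. ANXA7, an annexin that binds calcium and membranes, stood between 0.23 and 0.41 on all 11 probes and was picked after its values were seen. SF3B1, the core protein of the U2 splicing particle, stood between 0.33 and 0.39 on all 10 probes within 742 bases of the 3′-most one. It stood between -0.08 and 0.05 on 3 probes farther upstream, and at -0.10 and 0.28 on 2 probes of another target. One of its probes ran from 3.63 through 3.79 to 3.99 in free-fed pigs and had a median of 4.15 and a highest value of 4.42 in restricted pigs, without overlap, and 1 restricted pig had no value there because its spot was an outlier. SHC1, the adaptor that links growth factor receptors to Ras, ran from 0.88 through 1.10 to 1.32 and from 1.28 through 1.42 to 1.54. Its SE was 0.07 for a difference of 0.33 (limma adjusted p 0.102), and all 4 of its probes stood between 0.27 and 0.43. SRSF6, a splicing factor of the SR family, stood at 0.39 (SE 0.09, limma adjusted p 0.104) and at 0.23 on both other probes. SELENOK, a selenoprotein of the endoplasmic reticulum, ran from 3.34 through 3.55 to 3.68 and from 3.69 through 3.82 to 4.01, a further case without overlap at 0.30 (SE 0.08, limma adjusted p 0.14). PISD, which makes phosphatidylethanolamine in mitochondria, stood at 0.63 (SE 0.15, limma adjusted p 0.113) and at 0.82 on its other probe.

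Of the 20 genes with the smallest p, 13 had a negative and 7 a positive difference. The negative ones began with GON4L, a nuclear protein, which ran from -0.74 through -0.28 to 0.50 in free-fed and from -1.64 through -1.08 to -0.70 in restricted pigs, with 7 of 8 restricted pigs below the free-fed range. Its difference was -0.86 (SE 0.17, limma adjusted p 0.0892), at -1.35 on scan day 1 and -0.37 on scan day 2, whereas its 3 other probes stood between -0.14 and -0.02, and with normexp it was -0.56. SCAPER, which binds cyclin A at the endoplasmic reticulum, ran from 0.82 through 1.01 to 1.19 and from 0.14 through 0.51 to 0.77 without overlap, 1130 bases upstream, while its 3′-most probe stood at -0.11. KDM1A, a histone demethylase, stood at -0.64 on an upstream probe and at 0.09 on the 3′-most one. GALNT7, which starts O-linked glycan chains, differed by -0.78 and -0.48 on its 2 probes, both negative, and the first by -0.36 with normexp. FAM13C (-0.78), PRPF38B (-0.49), PHLPP1 (-0.46), ITPR1 (-0.73), PHEX (-0.99) and GPATCH2L (-0.32) were also negative, with SRSF11 and SMC3 as above. The other PHLPP1 probe stood at 0.24 and both other GPATCH2L probes at -0.04, so these 2 genes rest on 1 probe. With normexp ITPR1 stood at -0.19, PHEX at -0.44 and GPATCH2L at -0.15. PRPF38B, a factor of spliceosome activation, was split by target, with -0.53 and -0.49 on one and 0.07 to 0.14 on the 4 probes of others.

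On the positive side stood SHC1, SRSF6 and PISD as above, DOLK, DDX39A, BTC and BRD2. BTC, betacellulin, a ligand of the EGF receptor, ran from 1.17 through 1.81 to 2.46 in free-fed and from 2.37 through 2.56 to 2.67 in restricted pigs, and 6 of 8 restricted pigs lay above the free-fed range. The difference was 0.69 (SE 0.16, limma adjusted p 0.117), at 1.09 and 0.28 on the 2 scan days. DDX39A, an RNA helicase of mRNA export, stood at 0.49, BRD2, a reader of acetylated histones, at 0.38, and DOLK, the kinase that makes dolichol phosphate for protein glycosylation, at 0.35. The 2 other BRD2 probes stood at 0.01 and 0.20. All had adjusted p between 0.112 and 0.121 in limma.

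The largest differences among genes with an unadjusted p under 0.05 came from variable genes. NUF2, a kinetochore protein of dividing cells, stood at -2.06 (SE 0.57, limma adjusted p 0.174), with levels from -3.13 through 0.31 to 0.94 in free-fed and from -3.48 through -2.99 to 0.37 in restricted pigs, while all low-RFI pigs lay between -3.41 and -2.71. PON3, a lactonase bound to lipoprotein, followed at -1.74, the lysozyme gene LYZ at -1.12, the intermediate filament gene NES at -1.04, TBXAS1 at -1.01 and NOVA1 at -0.96, with PHEX as above. APOA4, an apolipoprotein, stood at 1.16 and was well above background in 3 free-fed and 6 restricted pigs. PLA2G1B, a secreted phospholipase, stood at 1.08 and was so in 4 and 8. SCT, secretin, stood at 0.75, ANKRD37 at 0.66 and PHGDH, the first enzyme of serine synthesis, at 0.64. Many of these values were smaller with normexp, as its offset makes them for dim spots. Normexp gave -1.10 for NUF2, -0.90 for PON3, -0.59 for LYZ, -0.37 for TBXAS1 and -0.13 for NOVA1. APOA4 stood at 0.27, PLA2G1B at 0.26 and PHGDH at 0.30 there, and PLA2G1B at 0.28 with the upstream value as a covariate. The 3 other NES probes lay between -0.47 and 0.08. The groups overlapped for each of these genes, and apart from PHEX and the genes already given their adjusted p in limma was 0.139 or more.

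Over all probes, 4.95% had a positive and 4.81% a negative difference at an unadjusted p under 0.05. Of the 17999 tested probes without a gene symbol, 763 had a positive and 869 a negative difference at that level. Among the 10 with the smallest p whose description names a gene or protein, 8 were negative and 2 positive. P4HA2, by its description a prolyl 4-hydroxylase subunit that modifies collagen, ran from 2.26 through 2.42 to 2.76 in free-fed and from 2.81 through 2.98 to 3.32 in restricted pigs. The groups did not overlap, and the difference was 0.53 (SE 0.10, limma adjusted p 0.0892), at 0.60 and 0.47 on the 2 scan days. TCF12, a bHLH transcription factor, stood at -0.44, DIAPH2, a formin that nucleates actin, at -0.46, and ASH1L, a histone methyltransferase, at -0.50. CSRNP3, a nuclear transcription factor, stood at -0.95, the centrosomal protein ninein at -0.48, C4orf29 had an interval from -1.45 to -0.54, and a probe described as LOC534612 protein stood at -0.49. The adjusted p of these negative probes in limma lay between 0.0892 and 0.102. C4orf29 was well above background in 8 free-fed, 5 restricted and 5 low-RFI pigs. It thus passed the filter only through the free-fed group, where it was higher, and its difference is no support. Normexp gave -0.35 for CSRNP3, -0.18 for C4orf29 and -0.17 for DIAPH2. The remaining 2 carried descriptions from partial matches to microbial proteins, mcbC at -0.77 and Orf79 at 0.75 (-0.34 and 0.36 with normexp), which name no pig gene. A probe described as titin, 68930 bases upstream of the 3′-most titin probe on the array, ran from 0.89 through 1.15 to 2.40 in free-fed and from 0.21 through 0.64 to 0.81 in restricted pigs, without overlap (-0.67, limma adjusted p 0.261).

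Of 22 measured genes of the fasting and feed restriction list, 15 were positive and 7 negative, where 56.3% of all genes were positive, with a median of 0.22 against 0.02 over all genes. With normexp the medians were 0.09 and 0.00. At an unadjusted p under 0.05 there was 1 in each direction, UCP3 and CREB1, against 5.94% of all genes higher and 4.74% lower, and none passed the adjusted threshold. UCP3, a mitochondrial carrier induced when muscle burns fatty acids, ran from 3.13 through 3.71 to 4.68 in free-fed and from 3.41 through 4.77 to 5.71 in restricted pigs. It stood at 0.78 (SE 0.31, limma adjusted p 0.397) and its second probe at 0.81. Of the restricted pigs, 4 of 8 exceeded the free-fed range. The difference was 1.47 on scan day 1 and 0.09 on scan day 2. PDK4, the kinase that shuts off pyruvate dehydrogenase, ran from -1.01 through 1.10 to 2.67 and from -1.23 through 2.07 to 6.44, a difference of 1.28 with a 95% interval from -0.44 to 2.99, and all 9 probes were positive. PPARGC1A, the coactivator of mitochondrial biogenesis, stood at 0.66 (interval -0.10 to 1.43), DDIT4, an inhibitor of mTOR, at 0.55 (-0.08 to 1.18) and KLF15, a glucocorticoid-induced factor of amino acid breakdown, at 0.33 (-0.05 to 0.72).

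Other members lay closer to 0 or varied widely. FOXO1 stood at 0.28, PPARD at 0.28, CPT1B, which admits fatty acids to mitochondria, at 0.27, CEBPB at 0.23, CEBPD at 0.31 and FBXO32, a ubiquitin ligase of muscle atrophy, at 0.22. FOXO3 stood at -0.36, the metallothionein MT1A at -0.93, ANGPTL4, an inhibitor of lipoprotein lipase, at -0.23, TXNIP at -0.13 and UCP2 at -0.05, while NR4A3 stood at 0.75 (SE 0.92), CD36 at 0.07 and CDKN1A and LPL at 0.02. CREB1 stood at -0.38 (SE 0.13, limma adjusted p 0.285), at -0.73 and -0.03 on the 2 scan days. Normexp gave -0.17 for CREB1, -0.36 for MT1A, 0.14 for FOXO1, 0.17 for PPARD and 0.04 for CEBPB, and the 2 other FOXO1 probes stood at -0.17 and 0.17. The mean level of the list differed by 0.39 on scan day 1 and -0.04 on scan day 2, and its median was 0.02 without the arrays of slide 3, so the excess of positive values rested on part of the pigs. The glucocorticoid-induced list behaved likewise, with 7 of 8 positive against 56.3% of all genes, a median of 0.18, and 0.05 without slide 3.

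**Figure D4:**
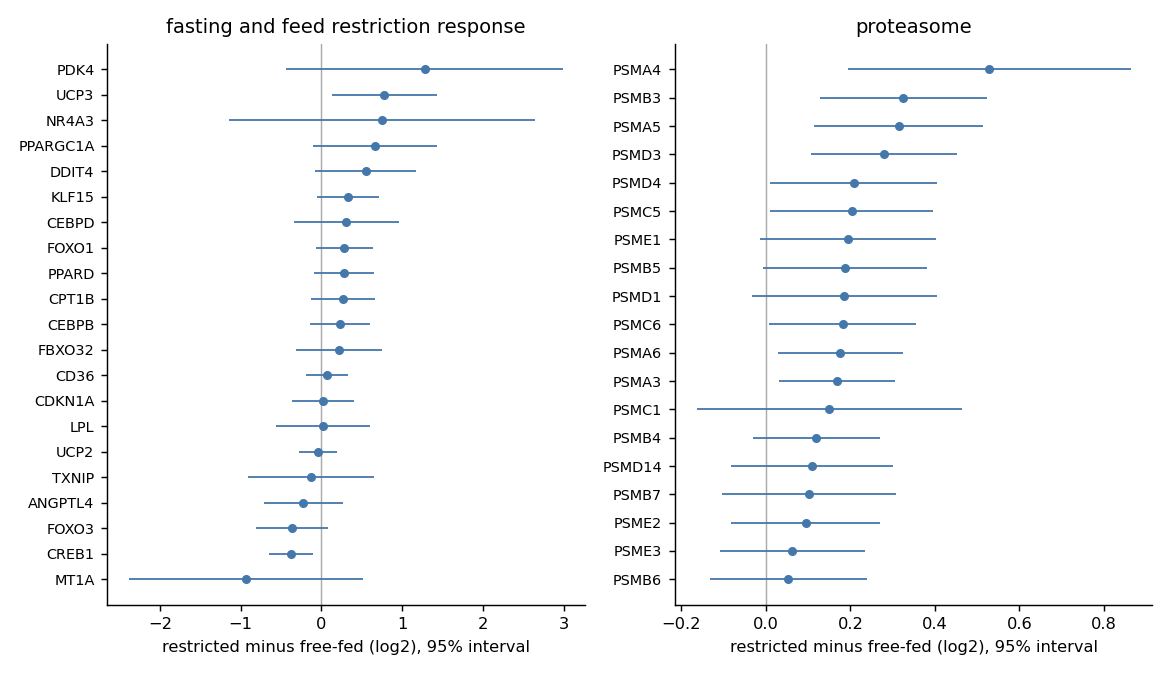
Difference (restricted minus free-fed, log2) with its 95% limma interval for the reported genes of the fasting and feed restriction list (left) and of the proteasome list (right). Intervals of UCP3 and CREB1 exclude 0 on the left, and all 19 proteasome genes lie above 0.

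The proteasome, the protease of ubiquitin-tagged proteins, had positive differences in 19 of 19 measured genes, where 56.3% of all genes were positive, with a median of 0.18 against 0.02 over all genes. Most of them had levels in the brightest of the 5 signal classes of all probes, where the median was 0.07. The list as drawn leaves out the immunoproteasome subunits PSMB8 (-0.37) and PSMB9 (-0.25), counted with the histocompatibility genes, and both were negative. At an unadjusted p under 0.05 there were 9 positive genes, where the share over all genes was 5.94%, and 0 passed the adjusted threshold. PSMB3, a subunit of the catalytic ring, ran from -0.93 through -0.73 to -0.60 in free-fed and from -0.72 through -0.46 to 0.04 in restricted pigs, which differ by 0.32 (SE 0.10, limma adjusted p 0.192), and 7 of 8 restricted pigs exceeded the free-fed range. PSMD3, a subunit of the regulatory cap, ran from 5.58 through 5.74 to 6.20 and from 5.92 through 6.06 to 6.15, which differ by 0.28 (SE 0.08, limma adjusted p 0.205). PSMA4 stood at 0.53 on its brightest, 3′-most probe and at -0.05 and -0.04 on probes 471 and 533 bases upstream, so its value depends on the probe. PSMA5 stood at 0.31, PSMD4 at 0.21, PSMC5 at 0.20, and PSMC6, PSMA6 and PSMA3 between 0.17 and 0.18. The mean level of the list ran from 4.21 through 4.34 to 4.63 in free-fed and from 4.41 through 4.57 to 4.71 in restricted pigs. It differed by 0.19 on both scan days and was positive on 6 of 6 slides. The median was 0.15 with slide as a block, 0.19 without slide 3 and 0.10 with the upstream value as a covariate. It was 0.11 with normexp and 0.11 with quantile normalization alone.

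Genes of protein synthesis showed smaller differences. All 37 measured cytosolic ribosomal protein genes were positive, with a median of 0.07 and a range from 0.01 to 0.15, and 0 had an unadjusted p under 0.05. The brightest of the 5 signal classes of all probes had the same median of 0.07, and the ribosomal median was 0.03 with normexp. Of 14 translation factors and mTOR signalling genes, 12 were positive, with a median of 0.12 (0.08 with normexp), and 4 had a positive difference at an unadjusted p under 0.05, against 56.3% positive and 5.94% higher at that level over all genes. These were EIF4EBP1, a repressor of cap-dependent translation, at 0.44, the helicase EIF4A1 at 0.27, and EIF2S2 and EIF2B5, of the initiation factor that brings the first transfer RNA and of its exchange factor, at 0.26 and 0.21. EIF4EBP1 stood at 0.26 with normexp. The list joins factors that promote translation with factors that restrain it. Among ligases and regulators of muscle atrophy the ASB2, FBXO21 and SMAD3 genes stood at 0.25, 0.21 and 0.34 and TRAF6 at -0.62, with the other probes of FBXO21 and SMAD3 at -0.11 and 0.02, and the median of 11 genes was -0.06, which turned to 0.12 with the upstream value as a covariate. Autophagy and lysosome genes had a median of 0.10 over 9 genes, with ULK1, the kinase that starts autophagy, at 0.38 (0.19 with normexp) and TFEB, the regulator of lysosomal genes, at 0.22. Of calpains and cathepsins, CTSS, a cathepsin of immune cells, stood at -0.54, with all 10 probes between -0.69 and -0.39, while the calpain inhibitor CAST stood at 0.29 on its brightest probe and at -0.51 to 0.00 on 3 others.

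Splicing factors split in both directions. Of 24 measured genes 17 were positive, against 56.3% of all genes, with a median of 0.10. At an unadjusted p under 0.05, SRSF6, SRSF2, SF3B1 and SRSF1 were positive, at 0.39, 0.36, 0.35 and 0.22. SRSF11, PRPF38B and PRPF4B were negative at that level, at -0.51, -0.49 and -0.28. Over all genes 5.94% were higher and 4.74% lower at that level. For SRSF11 the size depended on the probe, with 8 of 9 negative and 1 at 0.04, and for PRPF38B the sign did, as described above. Of 9 RNA decay genes, PABPC1, the cytoplasmic poly(A)-binding protein, stood at -0.36, with 10 of 13 probes negative and a range from -0.36 to 0.11, and CNOT7, a deadenylase, at 0.20. EDC3, a decapping factor, stood at -0.26 on its brightest probe, at 0.17 and 0.35 on its other 2, and at -0.07 with the upstream value as a covariate, so its sign depended on the probe. On its brightest probe PAN3 stood at -0.03.

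Genes of immune cells were mostly negative, where 56.3% of all genes were positive. Of 16 measured leukocyte and macrophage markers 13 were negative, with a median of -0.26, and LYZ and AIF1 had an unadjusted p under 0.05 (4.74% of all genes were lower at that level). The median was -0.17 with normexp. AIF1, a marker of macrophages, ran from 0.67 through 1.04 to 1.58 in free-fed and from 0.26 through 0.55 to 1.41 in restricted pigs, which differ by -0.39 (SE 0.18, limma adjusted p 0.464), with its other probe at -0.42. The mean level of the list ran from -1.43 through -1.12 to -0.62 and from -1.92 through -1.49 to -0.80, and differed by -0.31 and -0.27 on the 2 scan days. The macrophage markers CD163 and CD14 stood at 0.09 and -0.06 and the T cell genes CD3E, CD3D and CD8A between -0.06 and 0.08, near 0. The part of this list in the values of CTSS and LYZ was not tested. Of 19 genes of the histocompatibility complex, which presents antigen, 16 were negative, with a median of -0.20, and SLA-DMA alone had an unadjusted p under 0.05, at -0.24. Class I genes of pigs are near-identical copies, so their single values are uncertain. The median of the interferon-stimulated list was -0.10, with 13 of 22 genes negative and IFIT2 at -0.54 (-0.18 with normexp).

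Other cell types gave smaller shifts. Over all genes 56.3% were positive, and 5.94% were higher and 4.74% lower at an unadjusted p under 0.05. Endothelial and pericyte markers had a median of -0.09 (-0.30 without slide 3), with 9 of 13 negative, FLT1 at -0.76 and PECAM1 at -0.39, but NOS3 at 0.30. The PECAM1 probe lay 1930 bases upstream, and the 2 other FLT1 probes stood at -0.04 and 0.23. Fibroblast and matrix markers had a median of -0.08, with 13 of 21 negative and FBN1, fibrillin, at -0.43. Adipocyte markers had a median of -0.14, with 8 of 12 negative, which turned to 0.02 without free-fed replicate 2 and was -0.36 without slide 3. PNPLA2, the first lipase of triglyceride breakdown, went the other way and ran from -1.22 through -0.70 to -0.15 in free-fed and from -0.36 through -0.22 to -0.05 in restricted pigs, which differ by 0.49 (SE 0.16, limma adjusted p 0.263). The lipogenic enzymes SCD and FASN stood at -0.91 and -0.66, neither with an unadjusted p under 0.05. UCHL1, a ubiquitin hydrolase of nerve, stood at 0.45. The only measured erythrocyte marker stood at 0.00.

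Metabolic lists did not share one shift. Over all genes 56.3% were positive, with a median of 0.02, and 5.94% were higher at an unadjusted p under 0.05. Fatty acid uptake and oxidation had a median of 0.11 over 20 genes, with 16 positive and 0 at an unadjusted p under 0.05. The median was 0.06 with quantile normalization and 0.16 with median centring. Glycolysis had 11 of 12 positive, with a median of 0.13 (0.08 and 0.18 in these 2 settings). Most of its genes lay in the brightest signal class of all probes, where the median was 0.07. HK2, the hexokinase regulated by insulin in muscle, stood at 0.51 (0.29 with normexp). The tricarboxylic acid cycle (median 0.02 over 16 genes) and the respiratory chain (0.00 over 28 genes) had none at that level. TFAM, which maintains mitochondrial DNA, ran from 2.14 through 2.21 to 2.31 in free-fed and from 2.15 through 2.62 to 2.72 in restricted pigs, which differ by 0.31 (SE 0.09, limma adjusted p 0.202), and 7 of 8 restricted pigs exceeded the free-fed range. In insulin and IGF signalling the median was -0.01, with IGF2R, the receptor that clears IGF2, at 0.32 on its brightest probe but -0.13 and 0.03 on its other 2, GRB10, an inhibitor of the insulin receptor, at 0.35, GHR at 0.24 and the binding protein IGFBP4 at -0.54 (-0.13 with normexp). Of the circadian clock 5 genes were measured and all were positive, with a median of 0.44, RORA at 0.33 and NFIL3 at 1.03 (the latter with an unadjusted p above 0.05), and the mean level differed by 0.73 and 0.23 on the 2 scan days. The hour of sampling is not given in the labels.

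Fast and slow fibre genes had small positive medians, where 56.3% of all genes were positive. Most of them lay in the brightest signal class of all probes, where the median was 0.07. With quantile normalization the fast and slow medians were 0.02 and 0.05, and with median centring 0.12 and 0.15. Fast fibre contractile genes had a median of 0.07, with 10 of 13 positive, and PVALB, the calcium buffer parvalbumin, alone had an unadjusted p under 0.05. It ran from 5.49 through 6.15 to 7.38 in free-fed and from 4.15 through 5.49 to 6.30 in restricted pigs, which differ by -0.80 (SE 0.27, limma adjusted p 0.273). Slow fibre genes had a median of 0.09, with 10 of 14 positive. Heat shock genes stood at a median of 0.05, immediate early genes at 0.01, myogenic factors at -0.06, cholesterol synthesis at -0.08, cell proliferation at -0.11, glycogen metabolism at 0.08, AMPK and energy sensing at 0.12, fatty acid and triglyceride synthesis at 0.03 and nerve and Schwann cell markers at -0.09.

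**Figure D5:**
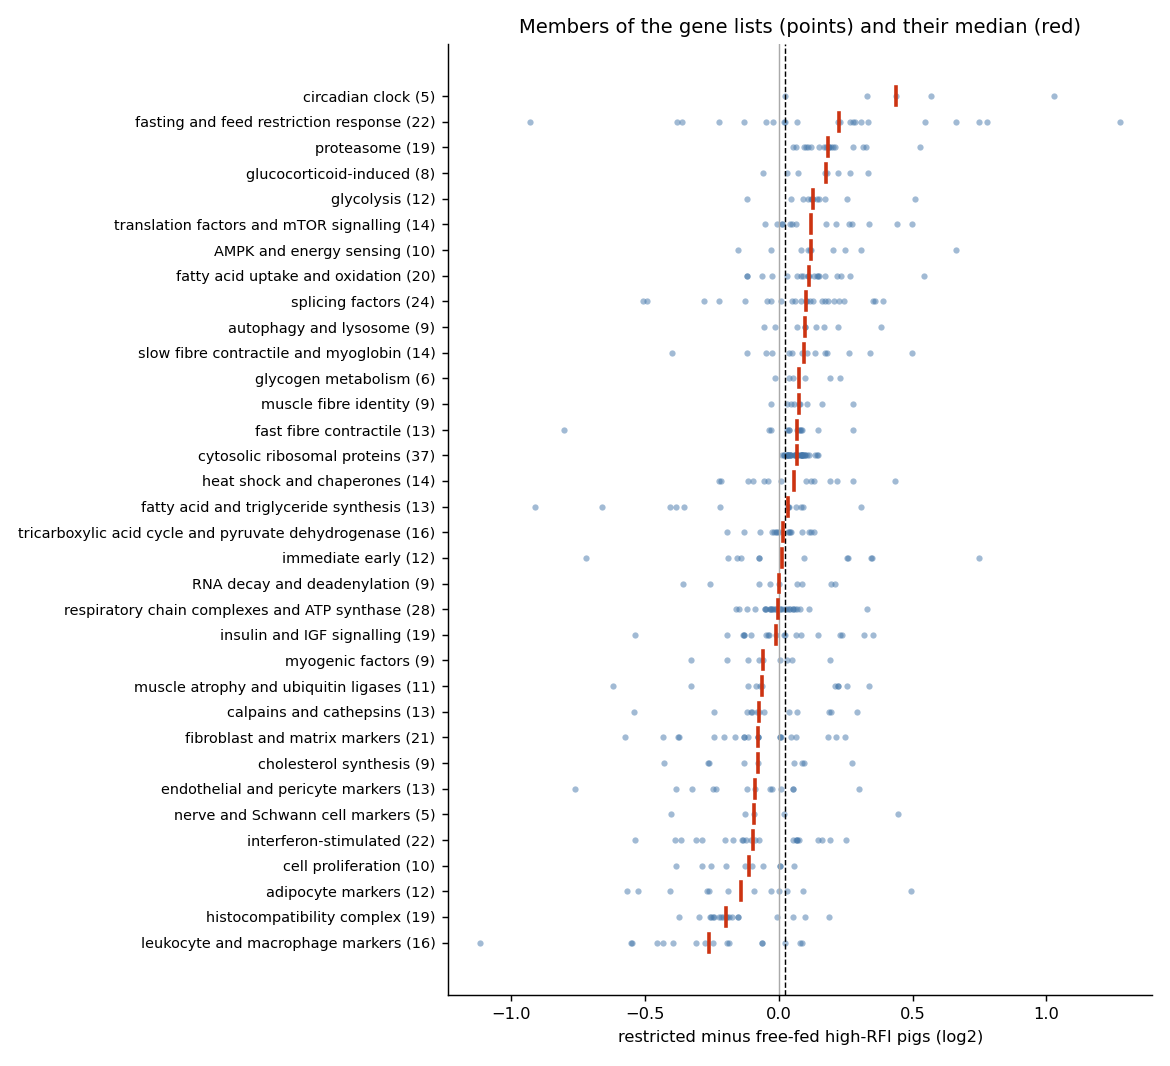
Differences (restricted minus free-fed, log2) of the measured members of each gene list with 5 or more, as points, and the list median in red, with the number measured in brackets. The dashed line is the median of all genes, 0.02, and list medians run from -0.26 for leukocyte and macrophage markers to 0.44 for the circadian clock.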

How the data were processed

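Total RNA of 23 pigs was labelled with Cy3 and hybridised to single-colour Agilent arrays, per the labels' protocols. The intensity of each spot was background-subtracted by Feature Extraction 10.7.3.1, per the file headers, and mean and background intensities were used for the normexp alternative only. That alternative used an offset of 50 and quantile normalization between arrays. The deposited log2 value table, which equals the log2 processed signal minus a constant per array, was an alternative. The submitters' processing notes name R 2.10.0.

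Here log2 processed signals of 43803 non-control spots were scaled by each array's 75th percentile, outlier spots set to missing, and spots averaged by probe. A probe was kept where 6 or more pigs of any group had it well above background, 27785 in all, 459 of them with missing values. Symbols were matched to the files' names, accessions and gene IDs, and a gene was read by its brightest probe. The 3 groups were fitted in limma 3.58.1 under R 4.3.3 with Benjamini-Hochberg adjustment over all kept probes. The spread of the low-RFI pigs enters the model. Distances between probes use the start positions given in the files.

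The rule for named genes took every probe past the threshold, the 20 genes with the smallest p, the 8 with the largest difference in each direction at an unadjusted p under 0.05, the 10 probes with the smallest p named only in descriptions, up to 3 genes of every list and all of the fasting list. Of the list genes the text mostly prints those with an unadjusted p under 0.05. Other names, the comparison by position and adenine content, the covariate fit and the reading of genes by their 3′-most probe were chosen after the values were seen. A pair of genes that the rule took is not reported here, though counts and medians include them. Members and lists were chosen with earlier results of these data known. The fit was tested on simulated data. Nothing beyond 1 array for each pig states how samples were taken, so p-values measure the spread between these samples.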

Additional observations from a re-analysis of the deposited data

Results flagged for a closer look

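In 290 sets of 8 levels, 1 for each of the reported genes and lists in each high-RFI group, the highest or lowest pig stood apart by Dixon's test in 23, where chance alone flags about 1 in 20. Free-fed replicate 2 was the pig set apart in 7 of them. It was highest for ninein (0.93), CENPF (-1.74), the titin probe (2.40) and FOXO3 (0.77) and for the mean level of endothelial and pericyte markers (1.86), and lowest for ANKRD37 (-1.07) and the mean level of cytosolic ribosomal proteins (7.49). Free-fed replicate 7 was highest for PSMD3 (6.20) and CTSS (2.35), and free-fed replicate 3 for PPARGC1A (3.35).

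Among restricted pigs, replicate 8 was lowest for the PAN3 probe (-2.95) and highest for FBN1 (-1.02). Replicate 7 was lowest for the titin probe (0.21) and CNOT7 (3.29) and highest for FLT1 (0.78) and PPARD (-1.03). Replicate 2 was lowest for NOVA1 (-7.40) and the cDNA probe FS671109 (-1.40), replicate 5 was lowest for PISD (-0.51) and highest for EIF4EBP1 (0.13), replicate 1 was lowest for BRD2 (4.80) and replicate 4 for GRB10 (5.41). For NUF2, replicate 6 stood at 0.37 while the next restricted pig stood at -2.55.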

How the results depend on the processing

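The number of probes past the adjusted threshold in limma was 1, and it was 0 with median centring, no filter on dim probes, trend and robust variance, slide as a fixed block, the 2 high-RFI groups alone, without slide 3 and with the upstream value as a covariate, where 2408 to 3187 probes had an unadjusted p under 0.05. It was 2 with slide as a random block, 3 with scan day as a block and 4 with normexp. The labels do not say whether replicate numbers pair the pigs. Same-numbered pigs had correlations of deviations between -0.15 and 0.33, and 3 of 8 numbers correlated best with their own. These values leave a pairing unsettled. A fit with the replicate block gave 0 probes, with 2466 at an unadjusted p under 0.05. Leaving out 1 pig gave 0 to 7, with 7 without restricted replicate 3, 4 without free-fed replicate 8 and 2 without free-fed replicate 1, and 0 without free-fed replicates 2 to 6 or restricted replicates 1, 2, 4 and 5.

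The sign was followed over the settings for 110 of the 172 named probes, those with an unadjusted p under 0.05 or on the fasting list. Among these it turned only in 6 genes of the fasting list, whose reported differences lay between -0.13 and 0.31. The other named probes were not followed. CEBPD stood at -0.040 and LPL at -0.32 without slide 3. With median centring UCP2 stood at 0.00525. With quantile normalization CDKN1A and LPL stood at -0.028 and -0.035, and with normexp at -0.029 and -0.021. CDKN1A stood at -0.025 with slide as a block and LPL at -0.044 with array weights. With the upstream value as a covariate CD36 stood at -0.056, CDKN1A at -0.076 and LPL at -0.0021. Leaving out 1 pig gave -0.34 to 0.11 for TXNIP, -0.052 to 0.13 for CDKN1A and -0.15 to 0.17 for LPL. Of list medians in other settings, 2 of 612 moved by more than the spread between pigs and 43 changed sign, as did 46 of 544 when 1 pig was left out. Probes without symbols and those near background limit what can be named.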
